A study of Caenorhabditis elegans with 2 samples.

Results

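The peaks described here lie at the starts of autosomal protein-coding genes that face no opposing protein-coding start in the same window, so that each peak can be put beside genes of a single strand. They were chosen by the pooled signal of both replicates and by position: of the 3000 strongest entries of the pooled peak list on nuclear chromosomes, 628 had a summit no more than 500 bp before or 100 bp past the start of a protein-coding gene. Entries on chromosome X, entries in windows of both strands and entries in the window of a tRNA, snoRNA or snRNA gene were left out by the rule. Among the other entries of the 3000, 252 lay between divergent protein-coding starts, 158 in small RNA windows, 586 on X and 1376 on autosomes outside any such window. The values that set the limit were close together: the last 3 entries inside it, at F55C7.2, dlst-1 and Y45G12B.2, had pooled signals of 13.94, 13.92 and 13.91. The next 3 entries of the same kind, at F25H2.4, zfr-1 and T24B8.3, had 13.89, 13.88 and 13.88.

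The study is a chromatin immunoprecipitation followed by sequencing (ChIP-seq) of CEH-82 tagged with enhanced green fluorescent protein (eGFP) in entire L3 larvae of the nematode Caenorhabditis elegans, males and females pooled. There was 1 group with 2 biological replicates, and both came from strain OP212, which carries unc-119(ed3) III and the transgene ddEx58. No second genotype, stage or treatment was analysed here, so statements compare places in the genome within this group, or its 2 replicates with each other. By worm nomenclature a name with Ex marks an extrachromosomal array, which can be lost from some cells, while the labels also speak of an insertion. Neither the promoter of the tagged gene nor the cells that make the protein are stated in the labels.

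CEH-82 is a homeodomain protein by its name. Homeodomain proteins bind short DNA sites, often with a TAAT core, through a helix that lies in the major groove. Many worm genes begin downstream of a short intergenic region that holds the promoter and the sites bound by transcription factors, and many transcripts are trans-spliced, so that the annotated start can lie downstream of the place where transcription begins. In whole-animal ChIP-seq a peak sums over all cells, so few cells with strong binding and many cells with weak binding cannot be told apart.

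The strongest members share a short sequence. The 5 members of highest pooled signal, at rpl-3, cdc-48.1, tasp-1, rpl-35 and cox-5A, all held the word AACACGCT within 50 bp of the summit. The 101 bp windows centred on these summits are shown because they show this word in its surroundings; they are given 5′ to 3′ on the strand that carries the word. Capitals mark AACACGCT, and ACACTT on the same strand. Sequences are from the RefSeq genome of assembly WBcel235, which is ce11. The window of rpl-3 is at chrIII:3867519-3867619, minus strand. The others are cdc-48.1 at chrII:10563533-10563633, minus strand, tasp-1 at chrIII:10759187-10759287, plus strand, rpl-35 at chrIII:7854628-7854728, minus strand, and cox-5A at chrIII:12905141-12905241, plus strand.
rpl-3: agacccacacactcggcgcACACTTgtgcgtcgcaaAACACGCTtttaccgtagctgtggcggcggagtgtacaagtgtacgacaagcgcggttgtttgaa
cdc-48.1: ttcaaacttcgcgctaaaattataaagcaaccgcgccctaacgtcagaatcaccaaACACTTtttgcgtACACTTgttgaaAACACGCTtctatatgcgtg
tasp-1: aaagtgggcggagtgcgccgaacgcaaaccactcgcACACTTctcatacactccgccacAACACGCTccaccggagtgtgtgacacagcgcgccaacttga
rpl-35: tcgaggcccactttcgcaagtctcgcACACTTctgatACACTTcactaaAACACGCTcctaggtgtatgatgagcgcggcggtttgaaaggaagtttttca
cox-5A: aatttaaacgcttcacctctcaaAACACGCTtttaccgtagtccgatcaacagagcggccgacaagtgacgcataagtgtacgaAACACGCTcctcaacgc

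This word was picked because more of the 15 strongest windows held it than any other 8-letter word, counted on both strands and beyond their flanks: 6 of the 15 windows held AACACGCT or its reverse complement AGCGTGTT, and none of their flanking windows did. The window of cox-5A held it at 2 places. Over all members 11 windows of 628 held it (1.75%, exact 95% interval 0.878 to 3.11), against 26 of 14095 windows (0.184%, 0.120 to 0.270) at other one-sided promoters, centred 185 bp before starts with no entry of the 3000. Of the 11 members, 7 were among the 16 strongest, and the others were at tba-2, aipl-1, spas-1 and yju-2, with pooled signals from 15.9 to 45.6. The word ACACTT was looked for only on the same strand and a short distance before AACACGCT. In the windows of rpl-3, cdc-48.1, tasp-1 and rpl-35 it started between 12 and 25 bp before AACACGCT, and the other 7 windows had none there. The reverse complement AAGTGT was not part of this search, and the printed windows of rpl-3 and cox-5A hold it in lower case. ACACTT was not picked by a ranking of words, and no other partner word was searched for in this way. ACACTT on its own was held by 8.92% of members and 6.28% of the other one-sided promoters. The order of the members by signal and the choice of the word both come from these windows, so the counts are a description.

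The second set of windows shows the words that recurred most over all 628 members. They are given in the direction of the gene, with capitals for any of the 6 words named in the next paragraph or their reverse complements, for CTGCGTC or its reverse complement, and for GAGAGAG or its reverse complement. They were taken from the strongest windows that hold a given word and overlap no annotated exon. Their places on ce11 are chrV:10897331-10897431 on the minus strand for sec-61.G, chrIV:17249859-17249959 on the plus strand for eelo-2, chrIV:17278524-17278624 on the plus strand for hsp-1, and chrIII:3460201-3460301 on the plus strand for C34C12.8. They are chrII:11345747-11345847 on the minus strand for nduf-11, chrIV:2177703-2177803 on the plus strand for hrpu-2 and chrIV:12372017-12372117 on the plus strand for wdr-46. The last pair, at chrIV:15472549-15472649 on the plus strand for Y73F8A.27 and chrIV:15471574-15471674 on the minus strand for ntl-11, have summits 975 bp apart, each before a gene that points away from the other.
sec-61.G: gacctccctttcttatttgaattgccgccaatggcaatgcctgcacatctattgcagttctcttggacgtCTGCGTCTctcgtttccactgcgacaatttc
eelo-2: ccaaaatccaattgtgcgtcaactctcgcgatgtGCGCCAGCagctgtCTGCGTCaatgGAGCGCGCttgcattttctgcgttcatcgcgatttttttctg
hsp-1: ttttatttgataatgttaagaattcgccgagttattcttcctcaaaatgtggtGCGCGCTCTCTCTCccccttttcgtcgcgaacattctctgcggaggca
C34C12.8: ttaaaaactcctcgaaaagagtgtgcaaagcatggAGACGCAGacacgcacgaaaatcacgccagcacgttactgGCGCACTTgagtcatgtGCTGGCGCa
nduf-11: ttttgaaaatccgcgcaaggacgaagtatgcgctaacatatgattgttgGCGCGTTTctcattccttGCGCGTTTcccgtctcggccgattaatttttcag
hrpu-2: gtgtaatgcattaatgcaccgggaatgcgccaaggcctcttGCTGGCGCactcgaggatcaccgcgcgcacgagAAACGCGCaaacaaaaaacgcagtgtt
wdr-46: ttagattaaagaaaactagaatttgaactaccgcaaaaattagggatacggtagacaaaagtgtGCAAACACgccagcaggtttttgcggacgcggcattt
Y73F8A.27: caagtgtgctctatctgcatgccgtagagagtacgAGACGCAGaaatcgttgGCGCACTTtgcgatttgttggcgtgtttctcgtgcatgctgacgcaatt
ntl-11: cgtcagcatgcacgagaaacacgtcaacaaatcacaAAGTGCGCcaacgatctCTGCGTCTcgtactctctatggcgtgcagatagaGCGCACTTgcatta

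All words were counted on both strands of the 101 bp windows. The 6 words were picked on the members themselves, as those found in most member windows beyond the mean of windows 400 bp to either side. Words that share a run of 6 letters with a stronger one were left out. Each count is of the exact word or its reverse complement alone, and the counts are descriptions. AGACGCAG, which holds the reverse complement of CTGCGTC, was in 63 windows (10.03%, 7.80 to 12.7), against 1.17% of the 14095 other one-sided promoters. The word GCAAACAC was in 50 windows (7.96%, against 0.610%), AAGTGCGC in 41 (6.53%, against 0.234%) and AAACGCGC in 40 (6.37%, against 0.348%). GCGCCAGC was in 34 windows (5.41%), against 9 of the other one-sided promoters (0.0639%), and GAGCGCGC was in 27 windows (4.30%, against 0.220%).

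At least 1 of the 6 words was in 203 member windows (32.3%, 28.7 to 36.1), and 47 windows held 2 or more. The same words were in 1.27% of the members' own flanks and in 2.60% (2.34 to 2.87) of the other one-sided promoters. The share was 42.0% (36.0 to 48.2) among the 269 members of rank 1 to 1000 and 25.1% (20.7 to 29.9) among the 359 of rank 1001 to 3000. Peaks between divergent starts had a share of 31.0% (25.3 to 37.1), inside the members' interval, and autosomal entries outside any window had 11.2% (9.57 to 12.98). No test of these differences was made, because the words were picked on the member windows.

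The shares also differed between windows of like GC content. Among windows with 40 to 45% GC, 41.7% of 120 members and 6.10% of 1706 other one-sided promoters held 1 of the 6 words. They were 30.8% of 130 against 8.97% of 725 at 45 to 50% GC, and 46.4% of 112 against 12.5% of 296 at 50 to 55% GC. The median distance of the words from the summit was between 15.5 and 24.5 bp.

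Several members hold related sequence. Exact stretches of 20 bp were shared by 30 pairs of members, which involved 43 members, and none of these pairs came from windows that overlap. The pair at Y73F8A.27 and ntl-11 carries such stretches on the same genomic strand; since the genes point away from each other, the windows printed in gene direction show them as reverse complements. The windows of rpl-3 and cox-5A, both on III, shared a stretch that includes AACACGCT. Repeated sequence can carry reads of more than 1 place, and how the authors treated such reads is not stated with the files.

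CTGCGTC, a word known from earlier results of these data, was in 72 member windows (11.5%, 9.08 to 14.2). It was in 0.876% of the flanks, in 1.48% (1.28 to 1.69) of the other one-sided promoters and in 7.14% (4.29 to 11.1) of the divergent peaks. Autosomal entries outside the windows had 8.65% (7.22 to 10.3) and entries on X 6.14% (4.34 to 8.40), so the word was not particular to the members. CTGCGTC read on the strand of the gene in 48 members and on the other strand in 24, beside 137 and 74 of the other one-sided promoters. TGCGC was in 194 windows (30.9%, 27.3 to 34.7), against 5.81% of the other one-sided promoters and 45.6% (39.4 to 52.0) of the divergent peaks. GAGAGAG was in 49 windows (7.80%, 5.83 to 10.2), against 2.10% of the other one-sided promoters and 13.8% of autosomal entries outside the windows. The homeodomain core TAAT was in 280 windows (44.6%, 40.7 to 48.6), fewer than the 63.4% of flanks and the 69.7% of other one-sided promoters. Its share was also low in divergent peaks (40.9%), entries on X (39.4%) and autosomal entries outside the windows (48.3%). Between members and other one-sided promoters of like GC content the intervals of the TAAT shares overlapped. They were 50% against 48.7% with 40 to 45% GC, 33.1 against 38.9% with 45 to 50% and 25% against 26.7% with 50 to 55%. The palindrome TAATTA was in 14 member windows (2.23%), against 5.99% of the other one-sided promoters. In the same 3 ranges of GC content its shares were 0.833 against 1.93%, 1.54 against 1.10% and 0.893 against 0.676%. The shares of CTGCGTC there were 10.8 against 3.99%, 10.8 against 6.07% and 19.6 against 7.43%, with intervals that overlap in the middle range. For GAGAGAG the shares were 6.67 against 4.22%, 9.23 against 6.07% and 14.3 against 8.78%, with intervals that overlap in each range.

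GC content rose to a narrow maximum at the summits. The 101 bp windows of the members had a mean GC content of 43.9% ± 9.16 (SD over 628 members), with a range from 17.8 to 67.3%. Windows 400 bp to either side had 36.7% ± 8.63, and the windows of other one-sided promoters, centred 185 bp upstream of the start like the median member, had 33.7% ± 7.86. The members of rank 1 to 1000 had 47.4% ± 7.37 and those of rank 1001 to 3000 had 41.2% ± 9.48. Divergent peaks had 45.3% ± 7.55. CpG made up 6.34% of dinucleotides in member windows and 2.86% in the other one-sided promoters. Soft-masked bases, which mark repeats in the reference, made up 26.6% of the member windows and 37.0% of the windows of the other promoters.

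**Figure D1:**
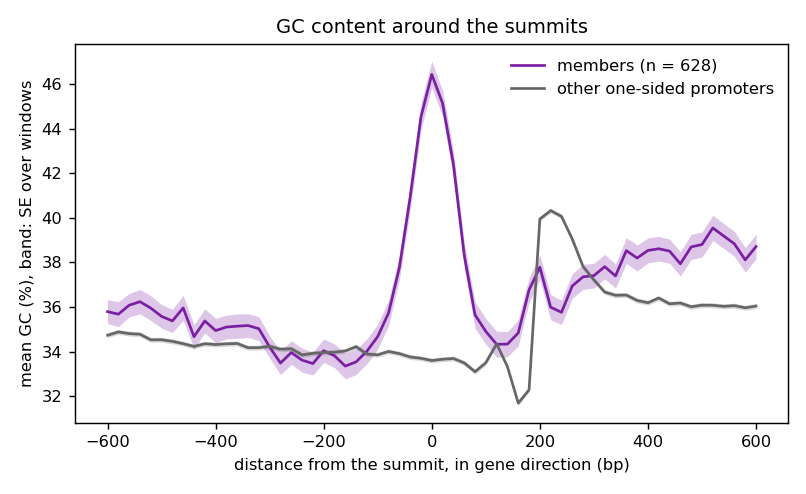
Mean GC content (y axis, percent, in steps of 20 bp) against distance from the summit in the direction of the gene (x axis, bp). The purple line is the 628 members and the grey line the other one-sided promoters, centred 185 bp upstream of the gene start; bands are the standard error over windows, and the members rise to 46.4% at the summit while the other promoters lie at 33.6% there.

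The profile by distance shows that the rise spans little more than the window itself: the mean was 46.4% at the summit, 34.7% at 100 bp before it and 34.9% at 100 bp after it. At the same 3 distances the other one-sided promoters had 33.6, 33.9 and 33.5%, and their own rise, to 40.3% at 220 bp, lies past the gene start.

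Signal among the members was uneven, with few very strong peaks. The signal is the authors' own value per peak, whose scale the files do not state, and it serves only to order and describe entries within a list. The pooled signal ran from 13.9 to 306 with a median of 20.4 and quartiles of 16.2 and 31.6. The median over all 3000 entries was 18.8, over divergent peaks 23.5 and over autosomal entries outside the windows 17.3. Members made up 31.2% of ranks 1 to 250 and 16.4% of ranks 2001 to 3000. The −log10 q of 339 members (54.0%) stood at 3.44, the highest value of the pooled list, so the authors' q does not order them.

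Of the 15 strongest members, 3 stand at ribosomal protein genes. Among these, rpl-3 and rpl-35 encode proteins of the large ribosomal subunit and rps-1 one of the small subunit. The peak at rpl-3 had a pooled signal of 306, with 224 in replicate 1 and 84.2 in replicate 2. At rpl-35 the pooled signal was 214, with 157 and 56.0 in the replicates, and at rps-1 it was 101, with 68.6 and 32.7. Replicate 1 was the higher at each of the 3 genes, and the fold between replicates was alike at rpl-3 and rpl-35 (log2 1.41 and 1.48).

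The peak at cdc-48.1, which encodes a AAA ATPase that unfolds ubiquitinated proteins, had a pooled signal of 239, with 157 in replicate 1 and 78.7 in replicate 2. The peak at tasp-1, a homologue of the protease taspase, had 223, with 159 and 65.1. The peak at cox-5A, a gene of respiratory complex IV, had 146, with 103 and 42.0. In replicate 1 the peaks at cdc-48.1, tasp-1 and rpl-35 lay close together, between 157 and 159. The peak at sec-61.G, the gamma subunit of the channel that moves proteins into the endoplasmic reticulum (ER), had 135, with 102 and 29.6.

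The remaining 8 of the strongest members lay between 88.4 and 119. They were at eelo-2, at ints-4 of the Integrator complex, at Y39B6A.43, at dld-1, which encodes dihydrolipoyl dehydrogenase, at ddp-1, a small chaperone of mitochondrial import, at iff-2, which encodes eIF5A, at his-37, a histone H4 gene, and at a summit in the windows of both egl-30, a Gq alpha subunit, and C53H9.4. Histone H4 is encoded by many near-identical genes, so reads at his-37 may be shared with copies. The replicate 1 signals of these 8 members lay between 65.45 and 86.7 and their replicate 2 signals between 19.96 and 37.4, so the ranges of the replicates did not overlap.

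**Figure D2:**
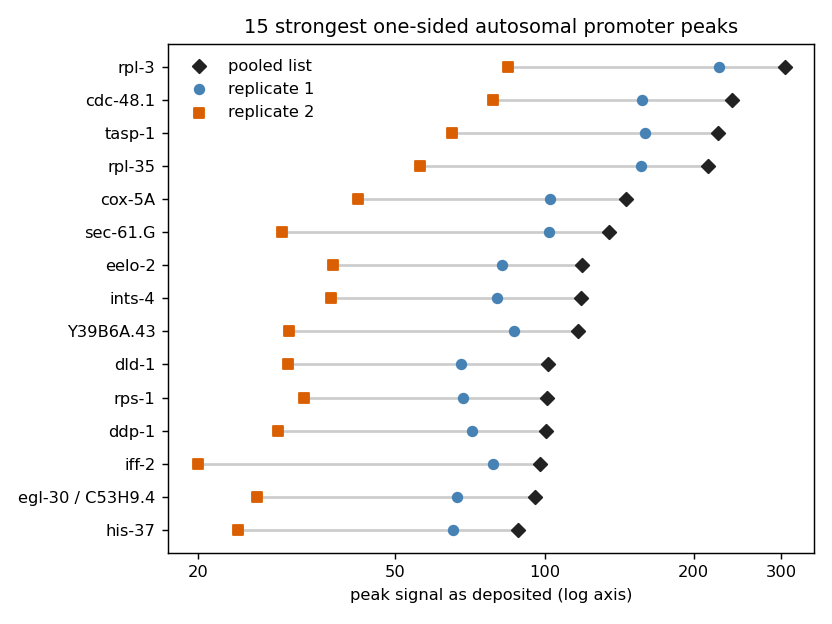
Peak signal as deposited (x axis, log scale) of the 15 strongest members (y axis, gene names), with diamonds for the pooled list, circles for replicate 1 and squares for replicate 2. Every replicate 1 value lies above the replicate 2 value of the same peak, from 224 against 84.2 at rpl-3 to 65.45 against 24.1 at his-37.

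Replicate 1 gave the higher signal at most members, as it did over all 3000 entries. An entry overlapping the member by at least 1 bp was present in the candidate list of replicate 1 for 625 members and in that of replicate 2 for 546. Both lists had an entry for 543 members (86.5%, 83.5 to 89.0), replicate 1 alone for 82, replicate 2 alone for 3, and no member lacked an entry in both. The median signal was 16.2 in replicate 1 (quartiles 12.4 and 24.7) and 6.47 in replicate 2 (4.40 and 9.95). Among the 543, 511 were higher in replicate 1 (94.1%, 91.8 to 95.9). The median log2 ratio of replicate 1 to replicate 2 was 1.40 among the members and 1.40 over all 3000 entries. Each replicate's list was made separately and the files hold no read totals, so the part of sequencing depth in this ratio was not tested.

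Members were among the strongest entries of replicate 1 more often than of replicate 2. Of the 628, 504 (80.3%, 76.9 to 83.3) were among the 3000 strongest entries of replicate 1, beside 77.0% of all 3000 entries. Of the 628, 351 (55.9%, 51.9 to 59.8) were among the 3000 strongest of replicate 2, beside 49.5% of all 3000. Both applied to 282 members (44.9%, 41.0 to 48.9), beside 37.9% (36.2 to 39.7) of all 3000. Since both replicates entered the pooled list that chose the members, these shares are descriptions and not a check by separate data. When the same rule was applied to the list of replicate 1 alone, 491 of its 624 genes were among the 628 (78.2% of the 628, 78.7% of its own). With replicate 2 alone, 325 of 518 genes were shared (51.8% of the 628, 62.7% of its own), and 258 genes (41.1% of the 628) were in all 3 sets.

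Agreement fell with rank in the same way for members and for all entries. Among members of rank 1 to 250, 97.4% were in the top 3000 of replicate 2, beside 98.4% of all entries of those ranks. At ranks 501 to 1000 the shares were 70.4 and 66.4%, and at ranks 2001 to 3000 they were 26.8 and 25.3%. For replicate 1 the share of members was 100% at ranks 1 to 250 and 51.2% at ranks 2001 to 3000.

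**Figure D3:**
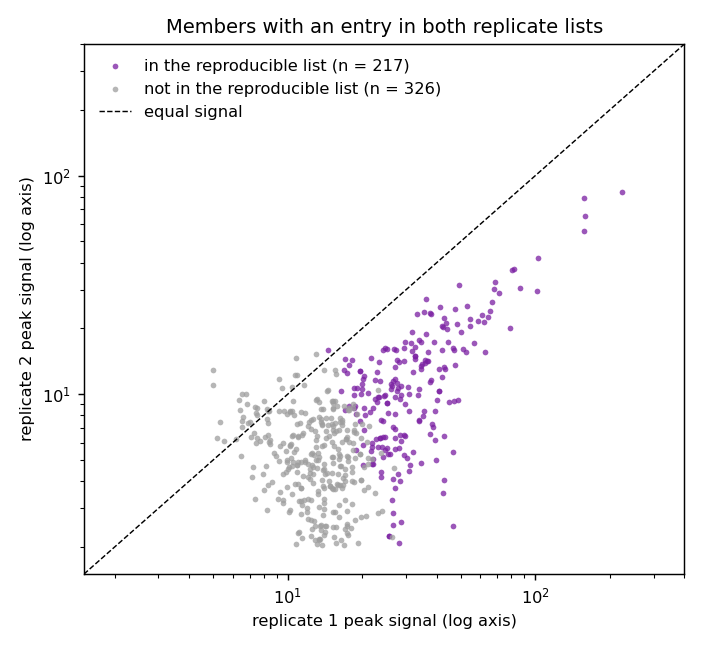
Peak signal in replicate 2 (y axis, log scale) against replicate 1 (x axis, log scale) for the 543 members with an entry in both lists, 1 point per member, purple where the member overlaps the reproducible list. Most points, 511 of 543, lie below the dashed line of equal signal.

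The reproducible list gave no separate check of single members. Its 748 entries were exactly the 748 strongest of the pooled list, so being in it is a limit on pooled signal. By an overlap of at least 1 bp, 218 members (34.7%, 31.0 to 38.6) were in it, beside 26.0% of all 3000 entries, and 212 members were the identical entry. The strongest members outside it were at fic-1 (pooled signal 26.9), chmp-7 (26.9) and gbas-1 (26.8). At fic-1, which encodes an AMP-transferring enzyme, the replicates had 10.9 and 12.2. At chmp-7, an ESCRT-III protein gene, they had 21.0 and 4.78.

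Some members inside the reproducible list had little signal in replicate 2. Within that list the largest ratio of replicate 1 to replicate 2 was at lin-9, which encodes a subunit of the DREAM complex, a repressor of cell cycle genes. Its pooled signal was 49.3, with 46.6 in replicate 1 and 2.50 in replicate 2, a log2 ratio of 4.22. Next came rps-4, a small ribosomal subunit gene, with 28.1 and 2.07, and then W08E12.7, with 42.2 and 3.52. The lowest ratio within the list was at cyn-1, a cyclophilin gene, with 14.5 against 15.9. The next lowest within the list were at scpl-3, which encodes a phosphatase-like protein (17.0 and 14.5), and suf-1, a gene of the factor that cleaves pre-mRNA 3′ ends (18.2 and 14.3). Members outside the list reached lower ratios, down to a log2 of -1.38 at manf-1 (4.97 and 12.9), which was named after its values were seen. The strongest members with an entry in 1 replicate were at F10E7.5, T10E9.2 and pqbp-1.1, with 22.3, 21.7 and 21.4 in replicate 1 and no entry in replicate 2.

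Replicate support went with base composition. The 282 members in the top 3000 of both replicates had a mean GC content of 46.4% ± 8.18, and the other 346 had 41.8% ± 9.41. At least 1 of the 6 words was in 37.9% (32.3 to 43.9) of the first and in 27.7% (23.1 to 32.8) of the second. Members in the top 3000 of both replicates are also those of higher pooled signal, so replicate support and signal cannot be told apart here.

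Most summits lay upstream of the gene start, in a window that itself lies mostly upstream. The median position was 185 bp upstream, with quartiles 291 and 85.8 bp upstream. The rule allowed 500 bp upstream and only 100 bp downstream, so evenly placed summits would also lie mostly upstream. With a window of 1000 bp upstream the median stood at −264 bp. The positions are therefore descriptions, and a preference for upstream places was not tested. Upstream summits numbered 574 (91.4%, 88.9 to 93.5), and 430 (68.5%, 64.7 to 72.1) were within 300 bp of the start. The median was 205 bp upstream at ranks 1 to 250 and 171 bp upstream at ranks 2001 to 3000. By annotation, 491 summits (78.2%, 74.7 to 81.4) lay between genes, 39 in a 5′ UTR, 33 in an intron, 28 in a noncoding exon, 23 in a coding exon and 14 in a 3′ UTR. The summit was inside the member's own gene at 54 members and inside another protein-coding gene at 58. The window of another noncoding gene also held 59 of the summits, 45 of them at genes annotated as ncRNA and 9 at piRNA genes. Most entries, 606 of 628, were 340 bp wide.

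**Figure D4:**
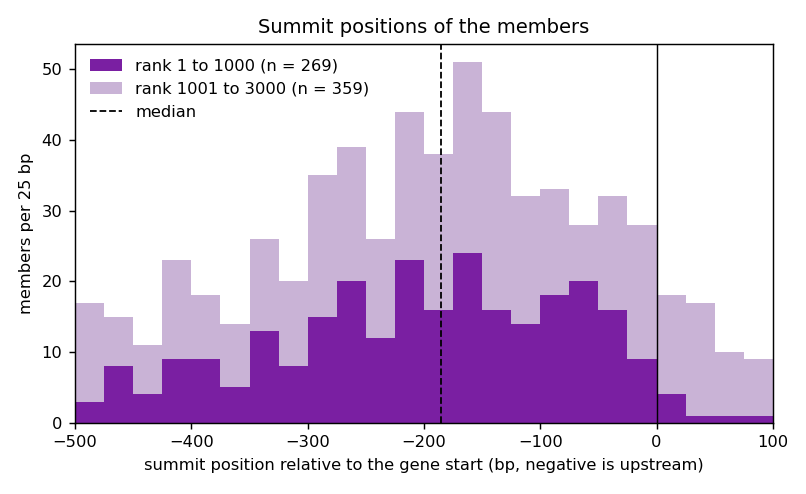
Number of members per 25 bp (y axis) by the position of the summit relative to the gene start (x axis, bp, negative is upstream), stacked for ranks 1 to 1000 (dark) and 1001 to 3000 (light). The dashed line marks the median, 185 bp upstream; the ends of the axis are the limits of the window that chose the members.

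A one-sided window does not mean a gene without neighbours. The nearest upstream protein-coding gene was on the same strand at 335 members (53.3%, 49.4 to 57.3), on the opposite strand at 250 (39.8%, 36.0 to 43.8), and at 43 (6.85%) the start lay inside another gene. At the 14095 other one-sided promoters the shares were 59.1, 32.9 and 7.99%. Upstream genes on the same strand were closer at the members, with a median gap of 476 bp against 799 bp. A same-strand gene within 500 bp, the layout of many worm operons, stood before 175 members (27.9%, 24.4 to 31.6) and before 21.8% (21.1 to 22.5) of the other promoters. Operon membership itself was not analysed here. The genes with a member were longer, with a median annotated span of 2552 bp (618 distinct genes, the nearest to each member) against 1998 bp. Genes with a member also more often had a gene class name (70.4%, 66.6 to 73.9, against 53.9%).

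The 628 members stood at 628 genes, because summits in the windows of 2 genes and genes with 2 members were equally many. Such summits numbered 10, led by egl-30 with C53H9.4, tub-2 with Y71G12A.5 (pooled signal 57.2) and pqn-51 with K11D12.14 (43.6). The 10 genes with 2 members include the ribosomal gene rps-24, the splicing helicase gene mog-4 and the polyadenylation factor gene cpf-2. The share of autosomal protein-coding genes with a member was 3.64% (628 of 17242). The 17242 include genes beside an opposing start or a small RNA gene, where the rule leaves peaks out. Shares by chromosome and by list therefore also depend on how genes are arranged, and that part was not tested. The share was 5.42% (4.58 to 6.35) on III and 4.45% (3.72 to 5.27) on chromosome I, against 2.56% (2.14 to 3.04) on V, with II at 3.42% and IV at 3.38% between them. Along the autosomes, cut into equal parts, the share was 3.63% in the left part, 3.90% in the middle and 3.34% in the right, with intervals that overlap. Another of the 3000 entries lay within 1000 bp of 74 members.

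Lists of gene families and pathways show which kinds of genes had a member. A total of 34 lists were matched by gene name and covered 4512 autosomal genes; 191 of the 628 genes with a member were in at least 1. The lists were drawn up with earlier results of these data known, so their counts are descriptions, read beside the 3.64% over all autosomal protein-coding genes. In 21 lists the share was above that value and in 13 below. Among the lists above, the interval includes 3.64% for ribosome assembly, mitochondrial ribosomal protein, respiratory chain and proton pump genes. It also does so for cell cycle, kinase and muscle genes and for the zinc finger list. With a narrower window and with either replicate alone, 19 lists lay above and 9 below the share over all genes in every setting. Leaving out a replicate moved the kinase list below it (either replicate), the muscle list below it (replicate 2), and the collagen and aminoacyl-tRNA synthetase lists above it (replicate 1). The basic helix-loop-helix list moved above it with either replicate left out, and the DNA repair list with replicate 2 left out.

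Among genes of protein synthesis, ribosomal protein genes had the highest share. Of 80 genes of cytosolic ribosomal proteins, 20 had a member (25%, 16.0 to 35.9), and 27 of the 80 lay at a divergent peak of the 3000. With the window of 250 bp upstream the share was 15%, below that of the proteasome list (17.1%), and without replicate 1 it was 21.3%, below that of the proton pump list (22.2%). After rpl-3 and rpl-35, rps-1 had the highest signal, and the median over the 20 was 30.6. Of the 20, 14 were in the top 3000 of both replicates, beside 282 of all 628 members. Of the 20, 15 were among the 1000 strongest entries, and agreement fell with rank for all entries. Of 40 translation factor genes, 5 had a member (12.5%, 4.19 to 26.8), led by iff-2 (97.9), with eif-3.C (51.4) and eif-3.B (44.7), which encode subunits of initiation factor eIF3. Ribosome assembly factors had 3 of 36 (8.33%, 1.75 to 22.5), namely imp-3 (23.9), pro-1 (21.8) and exos-2 (18.2). Aminoacyl-tRNA synthetases had 1 of 31, cars-1 at 14.6, a share of 3.23%, which was 6.45% without replicate 1 and 0% without replicate 2.

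Mitochondrial lists had shares of 8.51 to 19.4%. Import and dynamics genes had 7 of 36 (19.4%, 8.19 to 36.0), led by ddp-1 (101), the ADP/ATP carrier gene ant-1.1 (63.0) and tomm-20 (45.7), a receptor of the outer membrane. With the window of 250 bp upstream that share was 8.33%. Respiratory chain and ATP synthase genes had 4 of 47 (8.51%, 2.37 to 20.4), with cox-5A, nduf-11 (57.1) of complex I and cox-5B (46.7) as the strongest. Mitochondrial ribosomal protein genes had 6 of 70 (8.57%, 3.21 to 17.7), led by mrpl-28 (87.0), mrpl-55 (39.3) and mrpl-47 (24.5). For the last pair of lists the interval includes 3.64%.

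Lists of protein folding, degradation and transport had shares of 8.79 to 16.7%, except the TRiC list. Chaperone genes had 12 of 87 (13.8%, 7.34 to 22.8), led by hsp-1 (71.7), an Hsp70 gene, bag-1 (65.6), an Hsp70 cofactor gene, and dnj-13 (49.2), a DnaJ gene. Of these 12 members, 8 held 1 of the 6 words, beside 203 of all 628. The words were picked on the member windows, these among them. Of the 12, 7 were among the 1000 strongest entries, where 42.0% of members held a word, so the list and signal cannot be told apart. Other lists ranged from 5 of 8 members for cell cycle and for vesicle traffic genes to 2 of 13 for chromatin, 2 of 20 for ribosomal protein and 0 of 6 for kinase genes. The 8 subunits of the TRiC chaperonin had no member (0%, 0 to 36.9, an interval that includes 3.64%), while 4 of them had a divergent peak. Proteasome and CDC-48 genes had 6 of 41 (14.6%, 5.57 to 29.2), with rpn-11 (39.3), a deubiquitinase of the proteasome lid, and ufd-3 (24.8) after cdc-48.1. Without replicate 1 the share was 7.32%. Ubiquitin ligase and conjugating enzyme genes had 10 of 89 (11.2%, 5.52 to 19.7), led by wwp-1 (82.1), ubc-7 (41.6) and ubc-3 (34.8), and the share was 4.49% with the window of 250 bp upstream.

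ER translocation and secretion genes had 8 of 51 (15.7%, 7.02 to 28.6): after sec-61.G came sec-24.1 (78.5), a COPII coat subunit, and sar-1 (44.2), the GTPase that starts that coat. Vesicle traffic genes had 8 of 91 (8.79%, 3.87 to 16.6), led by the adaptor subunit gene apb-1 (53.5), vps-4 (39.1) and vps-60 (25.1), and 4.40% with the window of 250 bp upstream. The vacuolar proton pump had 3 of 18 (16.7%, 3.58 to 41.4), unc-32 (19.95), vha-2 (16.4) and vha-9 (13.95), all weak and none among the 1000 strongest entries. Their replicate signals were also nearly equal, at 9.49 and 10.7, at 10.5 and 9.27, and at 6.15 and 6.24. The share was 22.2% without replicate 1, and 5.56% without replicate 2 or with the window of 250 bp upstream.

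Lists of nuclear processes had shares of 2.60 to 15.4%. RNA polymerase and general transcription genes had 13 of 106 (12.3%, 6.70 to 20.1), with rpb-11 (56.7), an RNA polymerase II subunit, and cpsf-1 (41.7), a cleavage and polyadenylation factor, after ints-4. Splicing proteins and RNA helicases had 10 of 84 (11.9%, 5.86 to 20.8), led by smu-1 (51.6), usp-39 (37.2) and mog-4 (33.0). Nuclear pore and transport genes had 8 of 52 (15.4%, 6.88 to 28.1), led by nxt-1 (35.3), thoc-5 (34.2) and npp-8 (29.8), and 9.62% without replicate 1. Chromatin and histone genes had 13 of 190 (6.84%, 3.69 to 11.4), with swsn-3 (56.5), a SWI/SNF subunit gene, and set-4 (51.5), a histone H4 methyltransferase gene, after his-37. Cell cycle and kinetochore genes had 8 of 111 (7.21%, 3.16 to 13.7), led by efl-1 (62.7), an E2F factor gene, sas-5 (61.9), needed for centriole assembly, and knl-3 (49.8), and 4.50% with the window of 250 bp upstream. DNA replication and repair genes had 2 of 77, brc-1 (33.0) and brc-2 (14.3), and a share of 2.60%, which was 5.19% with that narrower window.

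Cytoskeleton genes had 11 of 91 (12.1%, 6.19 to 20.6), led by the alpha-tubulin gene tba-2 (45.6), the actin capping gene cap-1 (33.8) and gex-3 (27.8), and the share was 6.59% without replicate 1. Kinase, phosphatase and small GTPase genes had 6 of 97 (6.19%, 2.30 to 12.98), led by kin-14 (23.8), pkc-3 (18.9) and cnb-1 (16.8), and 2.06% when replicate 1 or replicate 2 was left out. Body wall muscle genes had 2 of 28, unc-45 (14.6), a myosin chaperone gene, and myo-3 (14.5), a myosin heavy chain gene, both close to the limit that chose the members. Their share of 7.14% (0.877 to 23.5) was 3.57% without replicate 2 and 0% with the narrower window.

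Gene families of sensory, secreted and regulatory proteins had few members. The 1261 autosomal chemoreceptor genes had 6 (0.476%, 0.175 to 1.03), with sri-18 (25.8), srz-97 (20.1) and srx-80 (19.4) as the strongest. None of the 6 was in the top 3000 of both replicates, and only 1 was among the 1000 strongest entries. The chemoreceptor share was 0.159% without replicate 1. Nuclear hormone receptor genes had 2 of 247 (0.810%, 0.0982 to 2.89), nhr-49 (18.7) and nhr-105 (16.1), and 0.405% without replicate 2 or with the narrower window. The F-box, BATH, MATH, pals and sdz families had 5 of 465 (1.08%, 0.350 to 2.49), led by fbxc-19 (22.6), and 0.645% without replicate 2. Collagen genes had 3 of 150 (2.00%, 0.414 to 5.73), col-94 (17.9), sqt-1 (14.8) and col-77 (14.3), and 3.33% without replicate 1. No member stood at the 237 C-type lectin genes (upper limit 1.54%), the 227 detoxification genes (1.61%), the 108 neuropeptide genes (3.36%), the 74 homeobox genes (4.86%) or the 58 major sperm protein genes (6.16%). For the collagen, homeobox and major sperm protein lists the interval includes the 3.64% over all autosomal protein-coding genes. In the lists of single replicates the homeobox share was 1.35% with each left out in turn, and without replicate 1 the neuropeptide share was 1.85% and the detoxification share 0.441%.

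Transcription factor genes outside these families had some members, at shares whose intervals include the 3.64% over all autosomal protein-coding genes. The list of zinc finger, bZIP, T-box and other factors had 8 of 105 (7.62%, 3.35 to 14.5), led by dmd-7 (49.0), jun-1, which encodes a Jun-type bZIP factor, and crh-1 (37.0), a CREB homologue gene. The peak at jun-1 had 33.9 in replicate 1 and 7.501 in replicate 2. The share of this list was 4.76% without replicate 1 or with the narrower window. The basic helix-loop-helix list had 1 of 31, hlh-11, whose pooled signal was 51.5, with 40.6 in replicate 1 and 10.3 in replicate 2, and a share of 3.23%, which was 6.45% without replicate 2. The homeobox list includes ceh-82 itself, and no entry of the 3000 in a one-sided or divergent window lay at any of its 74 genes.

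**Figure D5:**
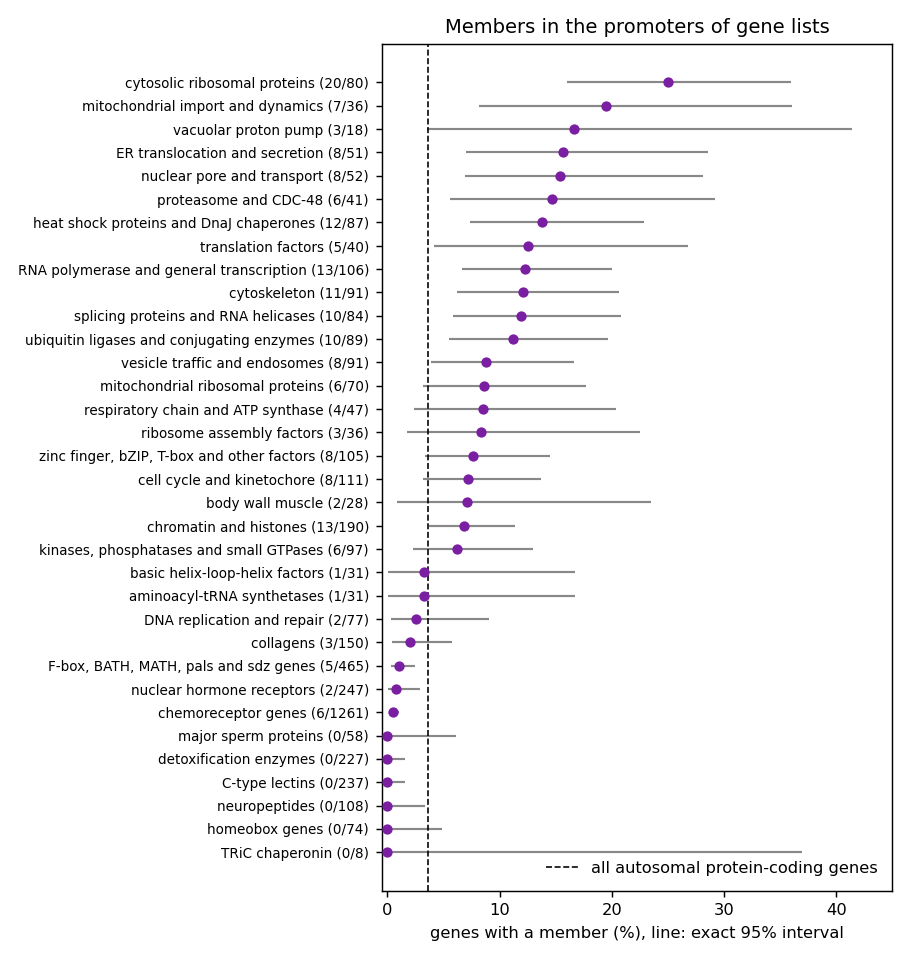
Percent of the autosomal genes of each list with a member in the promoter window (x axis), with list names on the y axis and, in brackets, the genes with a member over all genes of the list, points for the share and lines for exact 95% intervals. The dashed line is the share over all autosomal protein-coding genes, 3.64%; cytosolic ribosomal protein genes lie at 25%, the highest share as reported but not with a narrower window or without replicate 1, and 6 lists, TRiC among them, lie at 0.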

How the data were processed

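Each of 2 biological replicates of ChIP-seq was deposited as peak lists, and the lists on ce11 were used (those on ce10 were not). The authors called candidate entries mixed with background in each replicate and in both pooled, against a control alignment, and kept entries past an irreproducible discovery rate limit, per the file headers of the deposited text files. The aligner, caller and limits are not given in the sources used here. No control list was analysed here. The deposited signal value of an entry has no stated scale, and the deposited −log10 q came with it. Read depth is unknown, so no interval covers it.

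Entries were assigned to gene starts of Ensembl release 115 (WBcel235), with Python 3.11.15, numpy 2.4.6, pandas 2.3.3, scipy 1.17.1 and matplotlib 3.10.9. Sequence came from the RefSeq genome of that assembly. Intervals are exact Clopper-Pearson 95% intervals and cover counting error only. No test was made, because there is 1 group and the members come from the same signal. Counting, overlap and word scripts were tested on simulated data. Windows of other one-sided promoters were centred at the members' median distance from the start. Named genes were the 15 strongest members, the 3 strongest of each list, those beside the limits, and the extremes of the replicate ratio within the reproducible list. The members, lists and words were chosen with earlier results of these data known: list patterns were corrected after their matches were seen, and the 8-letter words were picked on the members.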

Additional observations from a re-analysis of the deposited data

How the results depend on the processing

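The number of members stayed within 1.5 times of 628 under every window, start, position and single-replicate setting tried (505 to 716). With the 1000 strongest entries, 78.8% of members were in the reproducible list, 85.5 and 62.1% were in the top 1000 of replicates 1 and 2, the median summit stood at −194 bp, mean GC content was 47.4%, CTGCGTC was in 13.4% of windows and 1.59% of genes had a member. A window of 1000 bp upstream put the median at −264 bp, and one of 250 bp upstream gave 2.95% of genes. Sequence windows of 50 and 200 bp in place of 100 gave 45.8 and 40.2% GC and CTGCGTC in 7.01 and 15.6%; the 8-letter words, an alternative chosen after seeing the data, were in 21.2 and 39.97%. Leaving out 1 replicate gave medians from −186 to −182 bp, GC of 42.2 to 43.2%, CTGCGTC in 9.79 to 10.6%, the 8-letter words in 25.5 to 27.8% and 3.00 to 3.62% of genes. A longer sequence window can only raise the share of windows with a word, and fewer entries can only lower the share of genes. The causes of the other moves, those with single replicates among them, were not tested. No paired analysis was possible because there is 1 group. Unknown depth, 2 replicates and the absence of a control list limit all values.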
